A study of Saccharomyces cerevisiae with 10 samples.

Results

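Protein-bound stretches of polyadenylated RNA in yeast starved of glucose were set directly against those in yeast starved of nitrogen. In the method, gPAR-CLIP, cells take up 4-thiouracil, long-wave ultraviolet light joins the thiolated RNA to bound proteins, and these are biotinylated and captured together with their RNA, so the protein at a site is not identified. Each condition has 2 replicate samples that the authors pooled into 1 list of clusters, which are short genomic intervals with a strand and no read count. The glucose list held 33345 clusters over 398836 nt and the nitrogen list 38936 clusters over 459603 nt, together 72281 of the 185005 clusters and 4 of the 10 samples of the series. Clusters were taken from these lists as they stand, with the log-phase list not used.

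Both groups were Saccharomyces cerevisiae BY4742, which the labels give as MATa, with the alleles ura3-delta-0, lys2-delta-0 and leu2-delta-0 as well as his3-delta-1. Cells of both groups grew at 30 °C in synthetic defined medium with 200 µM 4-thiouracil, were rinsed with water and were kept for 2 h in the same medium lacking glucose or lacking nitrogen. They were irradiated 4 times with 365 nm light at 150 mJ/cm2. The lysate was run on a gradient of 15 to 50% sucrose, and the top 600 µL, the light fraction, was biotinylated and passed over oligo(dT) and streptavidin beads. RNA that sedimented further down, as in large polysomes, was therefore not sampled. The covered length of a gene rises with the amount of its RNA as well as with the share of that RNA bound by protein, and these cannot be told apart here.

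Yeast cells answer the loss of glucose and the loss of nitrogen through different pathways. Without glucose, the Snf1 kinase relieves glucose repression and genes for the use of ethanol, acetate and other carbon sources are turned on, while translation initiation falls quickly. Without nitrogen, the TORC1 kinase complex is inhibited, the GATA factors Gln3 and Gat1 enter the nucleus, and genes held down by nitrogen catabolite repression, such as permeases and enzymes for poor nitrogen sources, are turned on together with autophagy. Both stresses lower the synthesis of ribosomes. In strains that lack LEU2, LYS2, HIS3 and URA3, removal of amino acids from the medium adds a further limit, and the sources used here do not say whether the nitrogen-free medium held these supplements.

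The stretches below come from the genes that differed most between the lists and from genes covered alike in both. Each is 30 bases of the RNA strand read from the R64 genome, 5′ to 3′, with the cluster in capitals; every one occurs once in the genome. The first set is the longest cluster of up to 30 nt in the coding region of the 4 genes with the highest glucose-to-nitrogen ratio, and none of these intervals shares a base with the nitrogen list.
YCR102C, chrIII:304645-304674, minus strand: aattaacTAATTTGACAGAAGAAaacgtca
RPP1A, chrIV:309996-310025, minus strand: cCAATGTCCCAGTTGAAAATATCTGGGCTg
TAO3, chrIX:111370-111399, minus strand: tttacaACTATATCTAAACACAAGgaaaaa
URA1, chrXI:25422-25451, plus strand: aactccaTGGGTTTACCAAACGaaggtatc

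The matching set for the 4 genes with the lowest ratio holds nitrogen clusters, none of which shares a base with the glucose list.
DAL5, chrX:720158-720187, plus strand: ttattAGCTTTACATGCAGCTCCAAcagtt
YHI9, chrVIII:168031-168060, minus strand: gAAGATGCAGAAACTTGCTTCAATGCAAAc
ARG1, chrXV:220431-220460, plus strand: CGGTGAATCCAAAAAAACCAAAGGTGAAGA
SUL1, chrII:790298-790327, plus strand: taacaagAAACAAATCTTCAAAagaccgtc

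The last set gives stretches that both lists cover, with the shared bases in capitals. They come from the mitochondrial large-subunit rRNA, which is among the RNAs with the most clusters, and from 3 genes with high shares of shared clusters, chosen after their values were seen: SNR30 (a snoRNA needed for 18S rRNA processing), LSP1 (an eisosome component) and DSE2 (a daughter-cell wall protein).
21S_RRNA, chrM:58840-58869, plus strand: ttaaaTCTCGAAATATTTAATTATatataa
SNR30, chrXII:198969-198998, plus strand: ggaCAACGGCATCACATAAGAGATGCAgct
LSP1, chrXVI:551149-551178, minus strand: tcctcaaTCAACAAAAATCCCAGttttaga
DSE2, chrVIII:386407-386436, plus strand: ttAACTAACCCGTCTCAATCCGTTGATgcc

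Of 6477 annotated genes, 5783 held a sense cluster in either list, with 5255 in both, 185 in glucose alone and 343 in nitrogen alone. The median gene had 3 clusters in glucose and 4 in nitrogen. Genes were compared by the log2 ratio of glucose over nitrogen, taken on covered length plus 20 nt and scaled to all clustered nucleotides of each list. The ratio was at least 2-fold higher in glucose for 374 genes (6.47%) and at least 2-fold higher in nitrogen for 257 (4.44%), so 59.3% of these genes lay on the glucose side. The median over all genes was 0.11, and once ratios were centred on it the counts turned to 279 (4.82%) and 350 (6.05%), or 44.4% on the glucose side. List medians below are therefore given relative to the all-gene median.

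Cluster numbers gave a count ratio per list size with an exact 95% interval, which treats clusters as independent counts. The interval lay above 1 for 53 genes (0.916%) and below 1 for 43 (0.744%). Counting error alone can put up to 5% of such intervals to one side or the other, and fewer where a gene has few clusters. The number of single genes with an interval apart from 1 lies under this ceiling, which cannot show whether it exceeds counting error. With intervals widened for the number of genes, none of 5783 genes lay above 1 and 1 lay below it (0.0173%), DAL5. The intervals cover counting error, not the spread between cultures, and no test between conditions is possible with 1 pooled list each. What follows rests on groups of genes and on regions, with single genes as examples.

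DAL5, the allantoate permease on chromosome X at 719666-721297, had 25 clusters over 323 nt in the nitrogen list and 0 clusters in the glucose list. Against a floor of 3 clusters for a list with none, it had at least 7.14-fold more clusters in nitrogen. Of its 25 nitrogen clusters 22 lay in the coding region. The map of clusters along 6 genes shows these coding clusters spread from near the start codon to nt 1374 of the 1632 nt of the gene.

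**Figure D1:**
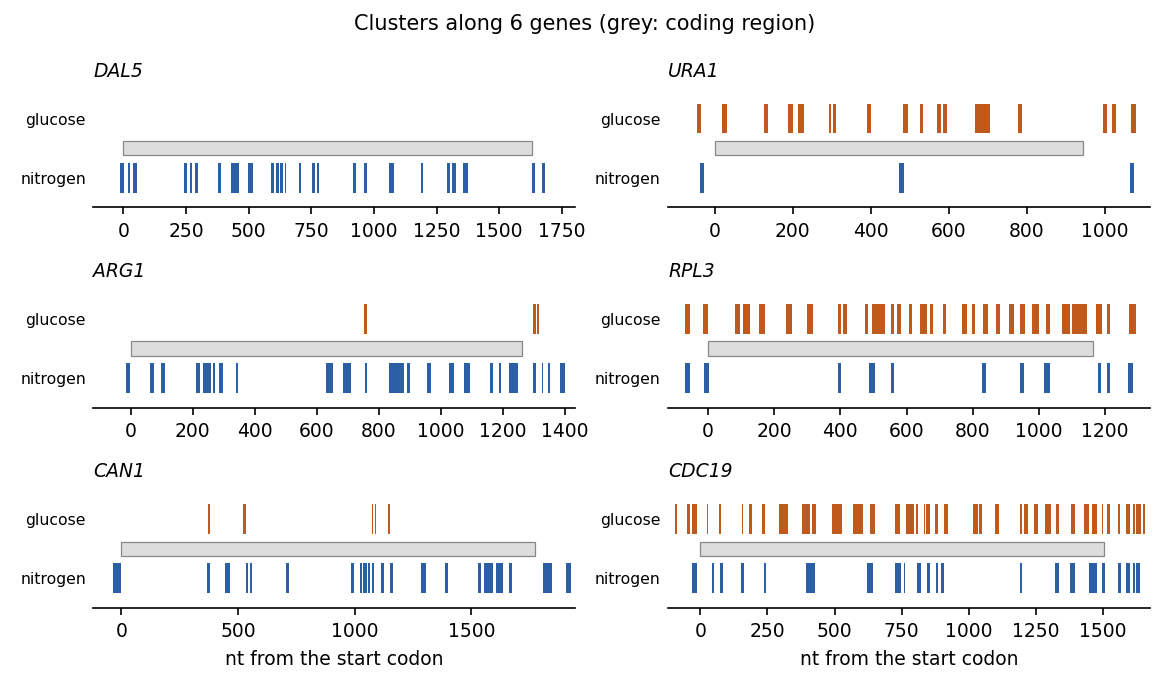
Positions of clusters along DAL5, ARG1 and CAN1 (left) and URA1, RPL3 and CDC19 (right), in nt from the start codon, with glucose starvation above and nitrogen starvation below the grey coding region. DAL5 has 25 clusters in the nitrogen list and none in the glucose list, while URA1 has 17 in the glucose list and 3 in the nitrogen list.

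Among the 10 genes with the lowest ratios were also YHI9, ARG1, SUL1, DAL80, DAL7, CAN1, ARG7 and PUT4, out of the genes with 5 or more clusters in glucose or in nitrogen. ARG1, argininosuccinate synthetase, had 3 clusters over 24 nt in glucose and 23 over 350 nt in nitrogen, a log2 ratio of -2.87 and a count ratio of 0.152 (0.0293 to 0.504). YHI9 had 1 cluster in glucose and 17 in nitrogen, a count ratio of 0.0687 (0.00164 to 0.438). SUL1, a high-affinity sulfate permease, had 0 and 12 clusters, at least 3.43-fold more in nitrogen against the floor. DAL80 (a GATA repressor) and DAL7 (a malate synthase of allantoin breakdown) each had 0 and 8 clusters, and PUT4 (the proline permease) had 0 and 9. CAN1, the arginine permease, had 5 and 22 clusters over 40 and 371 nt. ARG7, an enzyme of ornithine synthesis, had 5 and 21. The direction of these genes was set by their choice for the lowest ratios. In each, most of the nitrogen clusters were in the coding region, which held 60.4% of the nitrogen clusters of all mRNA genes.

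The 10 highest ratios belonged to YCR102C, RPP1A, TAO3, URA1, FAS2, YTM1, ARO9, MRX16, KAP95 and CSM4. URA1, dihydroorotate dehydrogenase of pyrimidine synthesis, had 17 clusters over 207 nt in glucose and 3 over 32 nt in nitrogen, a log2 ratio of 2.33 and a count ratio of 6.62 (1.91 to 35.2). RPP1A, a protein of the ribosomal stalk, had 10 and 2 clusters. FAS2, the alpha subunit of fatty acid synthase, had 9 and 1, and FAS1, the beta subunit, had 14 and 6. TAO3, of a pathway for polarised growth, had 8 and 1 clusters, KAP95 (the beta importin) 8 and 1, and YTM1 (a factor for the large ribosomal subunit) 7 and 1. YCR102C had 7 and 0 clusters, but 3 of the 7 lay in sequence that occurs more than once in the genome.

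**Figure D2:**
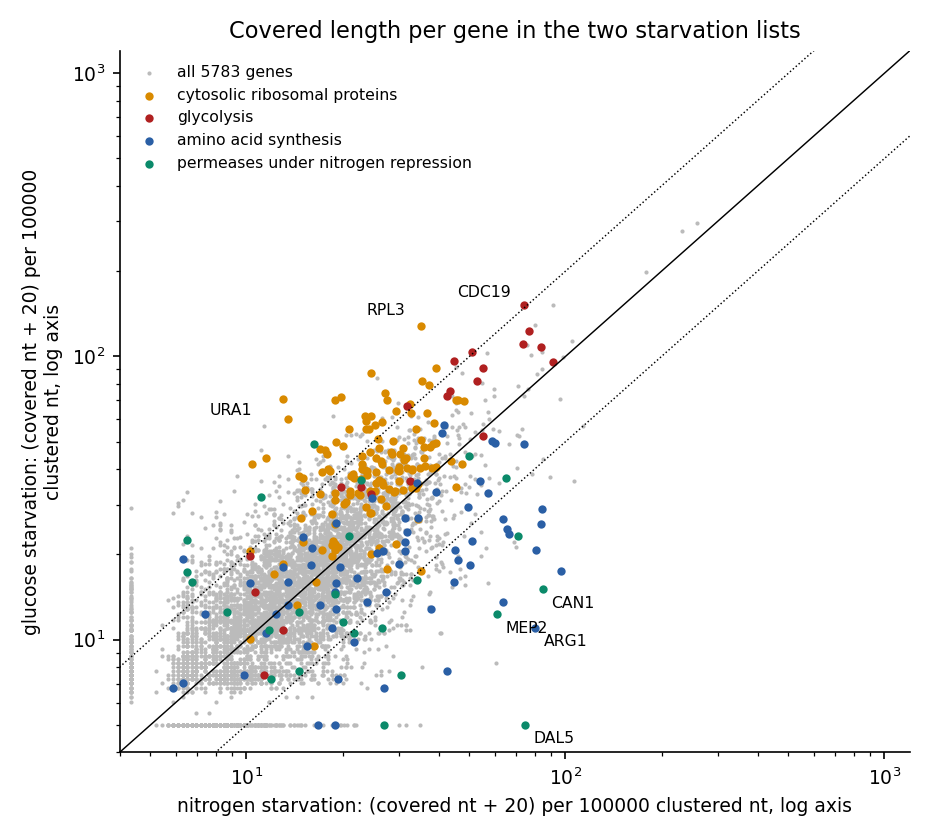
Covered length plus 20 nt per 100000 clustered nt for each of 5783 genes in nitrogen (x) and glucose (y) starvation, on log axes, with the line of equality and dotted lines at 2-fold. Ribosomal protein genes lie mostly above the line, and DAL5, MEP2, CAN1 and ARG1 lie beyond the 2-fold line on the nitrogen side.

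Permeases under nitrogen catabolite repression had more clusters in the nitrogen list, though not every one. The 25 permease genes held 109 clusters in glucose and 220 in nitrogen, a count ratio of 0.579 (0.456 to 0.731), and their median log2 ratio lay 0.82 below the all-gene median. Of the 25, 9 were at least 2-fold higher in nitrogen and 5 at least 2-fold higher in glucose, where 4.44% and 6.47% of all genes were. MEP2, the high-affinity ammonium permease, had 2 clusters over 29 nt in glucose and 19 over 261 nt in nitrogen, with 0 and 15 of them in the coding region. GAP1, the general amino acid permease, had 5 and 20 clusters. DUR3, which takes up urea, had 1 and 8. The 5 permeases on the glucose side included BAP3 with 6 and 1 clusters, GNP1 with 8 and 3, TAT1 with 5 and 1 and AGP1 with 4 and 1, all amino acid permeases that the Ssy1 sensor of external amino acids is known to induce. None of these 4 had an interval apart from 1.

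Enzymes that break down allantoin, urea, proline, GABA and arginine showed the same direction as a group. The 22 genes had 96 clusters in glucose and 177 in nitrogen, a count ratio of 0.633 (0.489 to 0.816). At least 2-fold higher in nitrogen were 7 and in glucose 2, where 4.44% and 6.47% of all genes were. DUR12, urea amidolyase, had 1 and 8 clusters, and PUT2, of proline breakdown, had 3 and 9. CAR1 and CAR2, which break down arginine, each had 6 and 5. ARO9, an aromatic aminotransferase, went the other way with 7 and 1. Among the regulators, 21 of 22 genes had clusters, 70 in glucose and 118 in nitrogen, a count ratio of 0.693 (0.508 to 0.939). GAT1 had 4 clusters over 47 nt and 9 over 203 nt, and GLN3 had 6 and 13, while TOR2, a kinase of the TOR complexes, had 4 and 1.

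The 6 genes of ammonium assimilation, which turn ammonium into glutamate and glutamine, had 44 clusters in glucose and 86 in nitrogen, a count ratio of 0.597 (0.406 to 0.869). GDH1, the main NADPH-dependent glutamate dehydrogenase, had 4 and 18 clusters over 65 and 302 nt. GLN1, glutamine synthetase, had 9 and 17, and GDH2, the NAD-dependent glutamate dehydrogenase, had 16 and 25. GDH3 had 1 and 1.

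The interval for autophagy genes did not lie apart from 1. Of 34 genes 32 had clusters, 106 in glucose and 149 in nitrogen, a count ratio of 0.831 (0.641 to 1.07). ATG1, the kinase that starts autophagy, had 3 and 10 clusters, and ATG31, a partner of the scaffold protein Atg17, had 1 and 7. ATG8, the ubiquitin-like protein of the autophagosome membrane, had 3 and 3. The 10 genes of vacuolar proteases had 79 and 104 clusters, a ratio of 0.887 (0.653 to 1.20). CPS1, a vacuolar carboxypeptidase, had 6 and 21, and PEP4, proteinase A, had 15 and 15.

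Genes of amino acid synthesis formed the largest block on the nitrogen side. Of 66 genes 65 had clusters, 327 in glucose and 667 in nitrogen, a count ratio of 0.572 (0.500 to 0.654). The median log2 ratio lay 0.61 below the all-gene median, 21 genes were at least 2-fold higher in nitrogen against 1 in glucose, and 10 had an interval below 1. The shares over all genes were 4.44%, 6.47% and 0.744%. ARG1, ARG7 and ARG4, all of arginine synthesis, were among the largest differences. ARG4, argininosuccinate lyase, had 3 clusters over 34 nt and 18 over 273 nt. LEU1, isopropylmalate isomerase, had 6 and 26 clusters, LEU4 (the first enzyme of leucine synthesis) 9 and 21, and HIS4 5 and 13. ILV2, of branched-chain synthesis, had 11 and 14, and TRP5 had 5 and 6. GCN4, whose protein activates these genes and whose leader holds 4 upstream open reading frames, had 7 coding clusters in glucose and 12 in nitrogen, and 8 and 5 clusters in the 361 nt from the start of its first upstream frame to the start codon.

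Sulfate uptake and methionine synthesis followed, with 29 genes, 137 and 243 clusters and a count ratio of 0.658 (0.530 to 0.815). Of these, 7 were at least 2-fold higher in nitrogen and 1 in glucose, where 4.44% and 6.47% of all genes were. Beside SUL1, MET10 (a subunit of sulfite reductase) had 2 and 12 clusters and MET1 (of sirohaem synthesis) had 2 and 9. MET3, ATP sulfurylase, had 4 and 5.

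**Figure D3:**
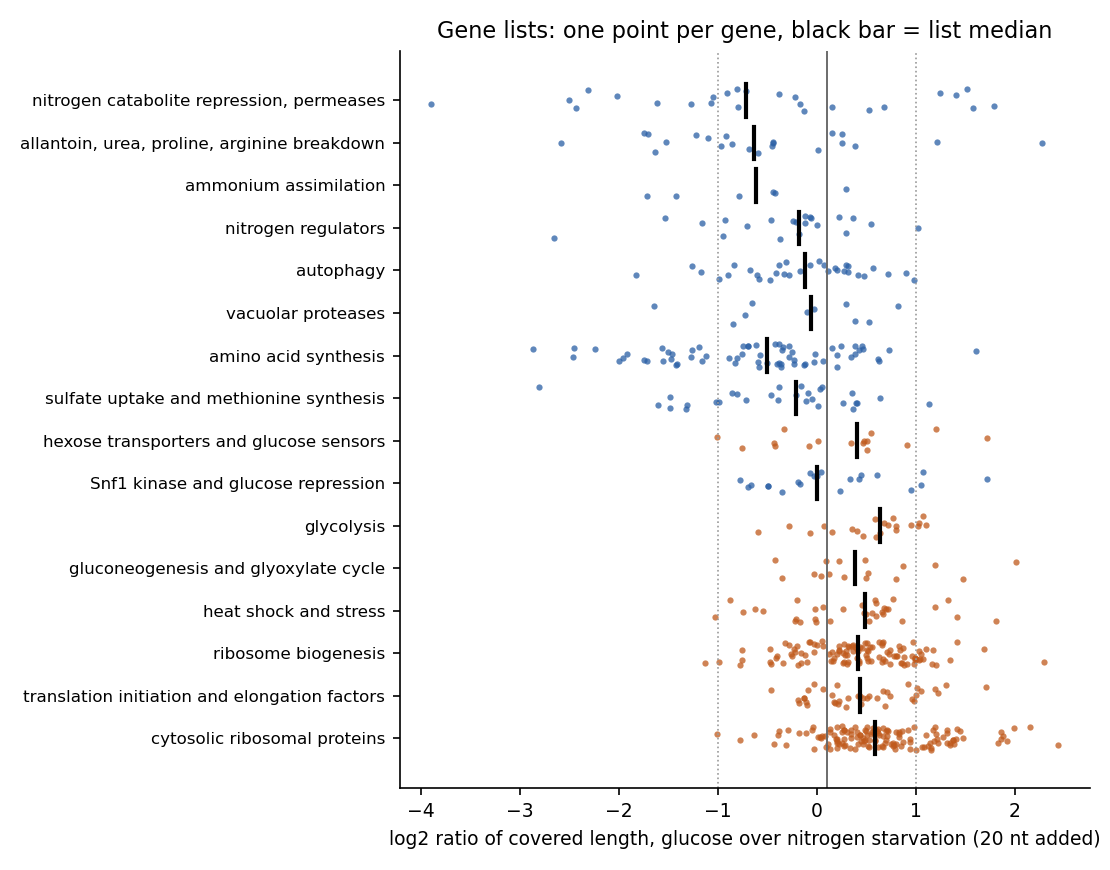
Log2 ratio of covered length, glucose over nitrogen, for each gene with a cluster in 16 gene lists, with black bars at list medians, a grey line at the all-gene median and dotted lines at 2-fold. The lists of permeases, breakdown enzymes and amino acid synthesis spread to the left, with medians 0.82, 0.74 and 0.61 below the all-gene median, and glycolysis and ribosomal proteins lie 0.54 and 0.48 above it.

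On the glucose side, genes of glycolysis and fermentation had 361 clusters in glucose and 269 in nitrogen over 21 genes, a count ratio of 1.57 (1.33 to 1.84). The median lay 0.54 above the all-gene median. At least 2-fold higher in glucose were 4 genes, and none in nitrogen, where 6.47% and 4.44% of all genes were. CDC19, pyruvate kinase, had 39 clusters over 586 nt and 22 over 321 nt, a count ratio of 2.07 (1.20 to 3.67). TPI1, triosephosphate isomerase, had 20 and 9, and GPM1, phosphoglycerate mutase, had 22 and 12. PGK1 had 26 and 24, and FBA1 had 29 and 23. Whether enzymes of the pathway differ from each other was not tested. ENO1 had 14 and 10, of which 5 and 2 lay in sequence found again in the genome.

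Gluconeogenesis and the glyoxylate cycle, which the loss of glucose is known to turn on, had 90 and 69 clusters over 16 genes, a count ratio of 1.52 (1.10 to 2.12). The member that stood out was ADH2, the alcohol dehydrogenase that oxidises ethanol, with 9 and 2 clusters, a count ratio of 5.25 (1.09 to 50.0). Its lower limit is close to 1, and 2 of the 9 glucose clusters lay in sequence that occurs more than once in the genome. CIT2, the peroxisomal citrate synthase, had 19 and 10, and ADY2, an acetate transporter, had 6 and 3. Their intervals, 0.982 to 5.34 and 0.499 to 14.4, include 1. The marker enzymes did not stand out: PCK1 had 4 and 4 clusters, FBP1 1 and 2, ICL1 3 and 4 and MLS1 2 and 2. Of the transcription factors that Snf1 activates, SIP4 had 13 and 4 clusters, a count ratio of 3.79 (1.17 to 15.98), and CAT8 had 5 and 2, a ratio of 2.92 (0.478 to 30.7) whose interval includes 1. Over the 21 genes of the Snf1 kinase and glucose repression the ratio was 1.10 (0.816 to 1.47), with SNF1 itself at 5 and 8 and MIG1, the repressor, at 5 and 7.

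Hexose transporters and sensors were split. HXT6, a high-affinity transporter, had 16 and 7 clusters, of which 12 and 7 lay in sequence found more than once, so that HXT6 could not be set apart from its near copies. HXT1, a low-affinity transporter, had 6 and 15. Of the 22 genes of the list, 16 had clusters, 95 and 98 in all, a count ratio of 1.13 (0.845 to 1.52).

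Genes of the translation machinery had more clusters in glucose. The 138 cytosolic ribosomal protein genes had 1433 clusters in glucose and 1082 in nitrogen, a count ratio of 1.55 (1.43 to 1.68). In sequence that occurs more than once in the genome lay 170 and 67 of them. Their median lay 0.48 above the all-gene median, and 119 of the 138 were above that median, where 49.9% of all genes were. At least 2-fold higher in glucose were 35 against 1 in nitrogen, with 6.47% and 4.44% over all genes. RPL3 had 30 and 11 clusters and RPL19B 16 and 4. The 39 translation initiation and elongation factors had 340 and 249 clusters, a count ratio of 1.59 (1.35 to 1.89), with 101 and 53 of them in such repeated sequence. TIF2, one of the genes for eIF4A, had 19 and 8, with 13 and 5 of them in sequence shared with its copy TIF1, which had 25 and 13. PAB1, the poly(A)-binding protein, had 15 and 12.

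Ribosome biogenesis factors, of which 114 of 116 had clusters, had 567 and 467, a count ratio of 1.42 (1.25 to 1.61). At least 2-fold higher in glucose were 13 and in nitrogen 1, where 6.47% and 4.44% of all genes were. UTP20, of the small-subunit processome, had 8 and 3 clusters, while NSR1 had 10 and 10 and NOP1 5 and 4. Mitochondrial ribosomal protein genes had 200 and 226 clusters over 69 of 72 genes, a ratio of 1.03 (0.850 to 1.26).

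Coding exons and flanks were then counted apart. In ribosomal protein genes, coding exons held 729 clusters in glucose and 313 in nitrogen, a count ratio of 2.72 (2.38 to 3.11). In the same genes the 3′ flank held 412 and 390, a ratio of 1.23 (1.07 to 1.42), and the 5′ flank 94 and 98, a ratio of 1.12 (0.835 to 1.50). The intervals for coding exons and 3′ flanks did not overlap. Of the 138 genes, 109 had more coding clusters in glucose, 11 in nitrogen and 18 equal numbers. The 6 with the largest difference, chosen after their values were seen, were RPL3 with 25 and 6 coding clusters, RPL4A with 17 and 3, RPL4B with 15 and 3, RPP0 with 21 and 10, RPS12 with 14 and 3 and RPL5 with 14 and 3.

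Introns of ribosomal protein genes went the other way. They held 198 clusters in glucose and 281 in nitrogen, a count ratio of 0.823 (0.682 to 0.990). Of 89 genes with an intron in the coding region, 52 had more intron clusters in nitrogen, 9 more in glucose and 28 equal numbers; the counts were not scaled to list size. RPS9B had 3 and 8 intron clusters but 6 and 3 in coding exons. RPL26A had 1 and 5 in its intron and 5 and 3 in coding exons, and RPL43A had 0 and 4 in its intron and 5 and 0 in coding exons; these genes were chosen by their intron counts. Introns of all other mRNA genes held 113 and 140, a ratio of 0.942 (0.729 to 1.22). Over all mRNA genes without the ribosomal protein genes, coding exons held 13092 and 15280 clusters, a ratio of 1.00 (0.977 to 1.02).

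**Figure D4:**
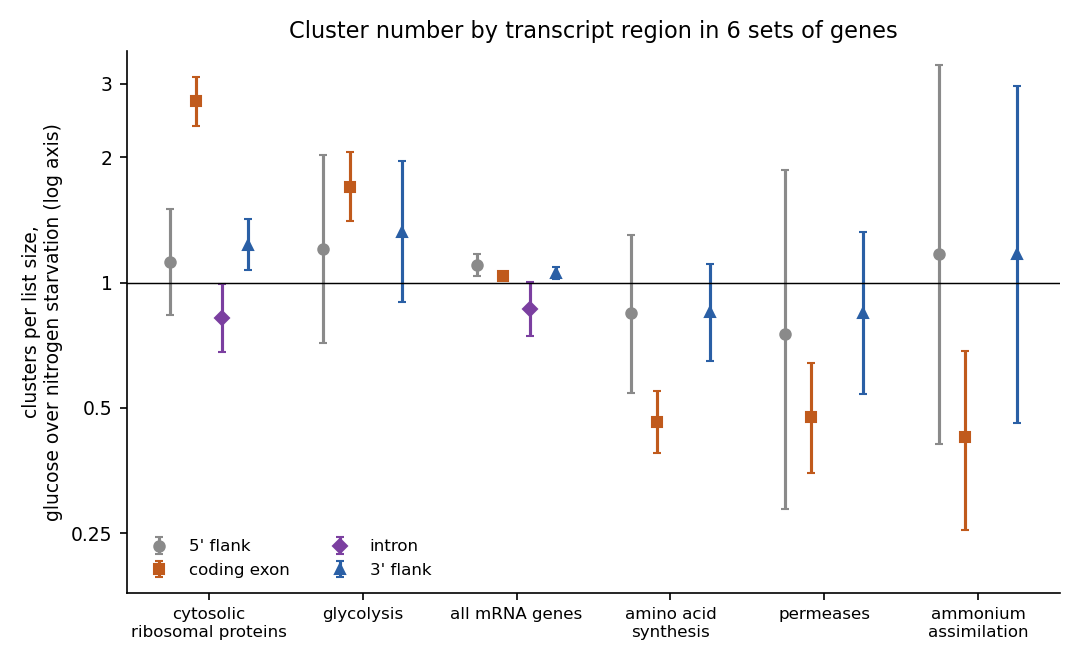
Ratio of cluster number per list size, glucose over nitrogen, by transcript region in 6 sets of genes, on a log axis; bars are exact 95% intervals for counting error, and sets with under 15 clusters in a region are not drawn. Coding exons lie farthest from 1 in ribosomal protein genes (2.72), amino acid synthesis (0.463), permeases (0.475) and ammonium assimilation (0.425), while the flanks of the last 3 have intervals that include 1.

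On the nitrogen side, coding and 3′ flank intervals lay apart for amino acid synthesis. Coding exons of amino acid synthesis genes held 189 and 477 clusters, a ratio of 0.463 (0.389 to 0.549), whereas their 3′ flanks held 99 and 136, a ratio of 0.850 (0.649 to 1.11). Coding exons of the permeases held 63 and 155, a ratio of 0.475 (0.348 to 0.640), and their 3′ flanks 37 and 51, a ratio of 0.847 (0.539 to 1.32), with intervals that overlapped. In ammonium assimilation genes the coding exons held 24 and 66 clusters, a ratio of 0.425 (0.254 to 0.687), and each flank held the same number in both lists, 9 and 9 upstream and 11 and 11 downstream, the 3′ flank interval of 0.459 to 2.97 overlapping that of coding exons. Coding and 3′ flank intervals also overlapped for breakdown enzymes, with ratios of 0.575 (0.417 to 0.785) and 0.749 (0.434 to 1.27), and for sulfate and methionine genes, with 0.553 (0.418 to 0.725) and 0.819 (0.533 to 1.25). For glycolysis the coding ratio was 1.70 (1.40 to 2.06) and the 3′ flank ratio 1.32 (0.897 to 1.96), with intervals that overlapped. In translation factors both lay above 1, coding exons at 1.75 (1.41 to 2.17) and 3′ flanks at 1.39 (1.01 to 1.93). The same held for ribosome biogenesis, at 1.53 (1.30 to 1.80) and 1.26 (1.01 to 1.58), and in both groups the intervals overlapped. The 3′ flanks of all mRNA genes had a ratio of 1.06 (1.02 to 1.09), which lay within the 3′ flank intervals of both groups. MEP2, ARG1 and URA1 each kept at least 1 cluster in the 3′ flank in the list with fewer clusters.

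Other lists of metabolism, stress and the cell cycle had these values. The tricarboxylic acid cycle had 143 and 128 clusters over 22 genes, a ratio of 1.30 (1.02 to 1.67), and inositol and phospholipid synthesis 115 and 95, a ratio of 1.41 (1.07 to 1.87). RNA-binding proteins and mRNA decay factors had 390 and 385, a ratio of 1.18 (1.02 to 1.37), and a median 0.10 above the all-gene median. SCP160, a protein with many KH domains, had 7 and 1. All sense mRNA clusters had a ratio of 1.04 (1.03 to 1.06), and 1.04 lies within the intervals of the tricarboxylic acid cycle and RNA-binding lists. Heat shock and stress genes had 260 and 258, a ratio of 1.18 (0.987 to 1.40), and a median 0.39 above the all-gene median, with CTA1, the peroxisomal catalase, at 6 and 2 and HSP12 at 6 and 11. Fatty acid and sterol synthesis had 179 and 179 clusters, a ratio of 1.17 (0.944 to 1.44). Of its 32 genes 4 were at least 2-fold higher in glucose, where 6.47% of all genes were. These were FAS2, FAS1, OLE1 and ACC1, which encode fatty acid synthase, the fatty acid desaturase and acetyl-CoA carboxylase, and only FAS2 had an interval apart from 1. Intervals included 1 for respiratory chain genes (1.09), trehalose and glycogen (1.12), cAMP and protein kinase A (0.980), peroxisome and fatty acid breakdown (1.24), the proteasome (1.17), core histones (1.41), cyclins (1.03), the cell wall (1.16), iron uptake (1.01), meiosis entry (1.00), snoRNAs (1.09) and mitochondrially encoded genes (0.858).

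By RNA class, sense mRNA took 69.2% of glucose clusters and 66.3% of nitrogen clusters. Clusters antisense to an annotated gene took 4.31% (4.10 to 4.53) and 6.21% (5.97 to 6.45), a ratio of 0.695 (0.650 to 0.742), and touched 865 genes in glucose and 1243 in nitrogen. DGR2 had 1 antisense cluster in glucose and 16 in nitrogen, HIR3 0 and 10, and SIP4 8 and 20, while ECM32 had 7 and 0. tRNA genes held 113 and 91 clusters, a ratio of 1.45 (1.09 to 1.93), and rRNA 244 and 221, a ratio of 1.29 (1.07 to 1.55). Nearly identical gene copies share these tRNA and rRNA clusters, and the placement of multiply matching reads is not stated in the sources.

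Within mRNA the split between regions was close. Coding exons took 59.9% of mRNA clusters in glucose and 60.4% in nitrogen, the 3′ flank of 150 nt 30.2% and 29.9%, and the 5′ flank of 100 nt 8.51% and 8.05%. Introns took 1.35% and 1.63%, a ratio of 0.827 (0.712 to 0.959) per mRNA cluster, while per list size it was 0.863 (0.743 to 1.001), which includes 1; ribosomal protein genes held 198 of the 311 and 281 of the 421. Position within the coding region differed more. The first 30% of the coding region held 29.7% (29.0 to 30.5) of coding clusters in glucose and 26.3% (25.58 to 26.96) in nitrogen. Without ribosomal protein genes these were 30.5% and 26.5%, and the last 30% held 33.2% and 35.0%.

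**Figure D5:**
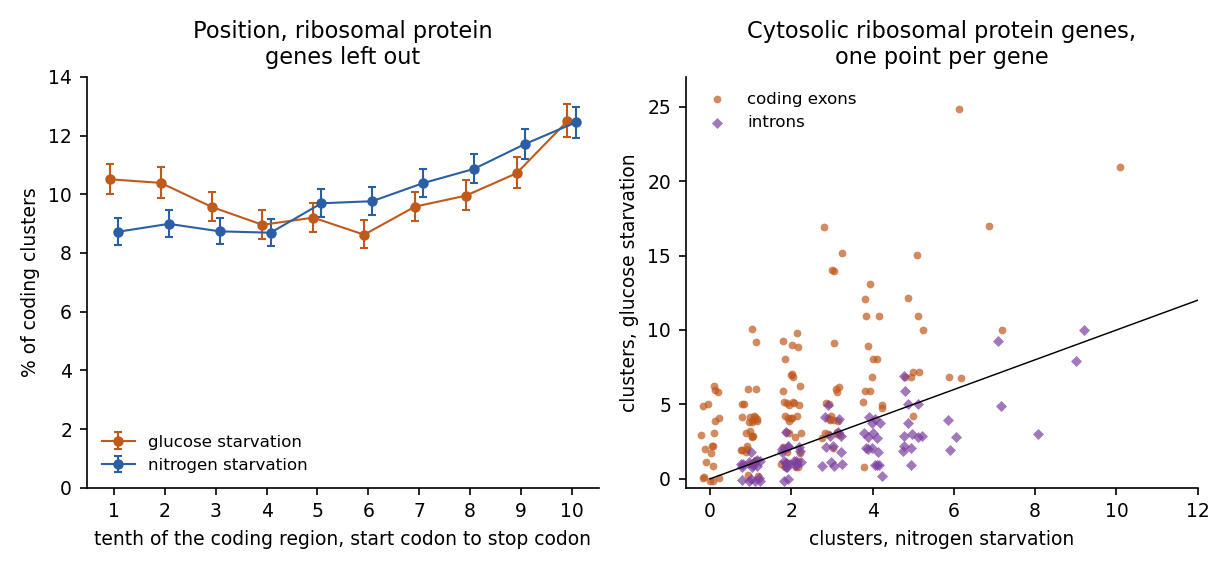
Left, share of coding clusters in each of 10 equal parts of the coding region from start to stop codon, ribosomal protein genes left out, with 95% Wilson intervals: glucose lies above nitrogen in the first parts (10.5% and 8.72% in part 1). Right, coding and intron clusters of each ribosomal protein gene in both lists, with small random offsets so that points do not hide each other and the line of equal numbers: coding points lie mostly above it and intron points mostly on or below it.

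At 215 mRNA genes with at least 10 clusters in both lists, the share of clusters in the 3′ flank differed by a median of -0.51 percentage points, glucose minus nitrogen. The 5 largest differences were RPS1A with 2 of 11 clusters in the 3′ flank in glucose and 6 of 11 in nitrogen, SRP68 with 1 of 10 and 4 of 11, RIE1 with 0 of 12 and 3 of 12, RPS19B with 4 of 11 and 6 of 10 and MPC2 with 5 of 12 and 3 of 16. The Wilson intervals of each pair overlapped.

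Clusters that shared 1 nt or more with a same-strand cluster of the other list made up 63.3% (62.8 to 63.8) of glucose clusters and 54.2% (53.7 to 54.7) of nitrogen clusters, the nitrogen list being the longer. The nitrogen share fell to 48.7% when 50% of the shorter cluster had to be shared and to 45.2% among clusters of at least 10 nt. The share was 80.5% and 76.6% for snoRNA and 79.6% and 82.7% for snRNA, and among mRNA regions it was highest for the 3′ flank, 76.5% and 69.3%. It was lower in coding exons, 57.4% and 50.7%, and for antisense clusters 48.8% and 29.3%. The lists shared 1099 clusters with the same start and end. Of 235 genes with at least 10 clusters in both lists the median share was 69.1% over both lists. SNR30 shared 14 of 14 and 14 of 15 clusters, LSP1 11 of 12 and 11 of 11 and DSE2 17 of 19 and 16 of 16. At the other end IRA2, a regulator of Ras, shared 4 of 12 in each list although both lists had 12, and EPS1, a chaperone of the endoplasmic reticulum, shared 4 of 10 in each.

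The base content of the clusters differed slightly. G made up 6.88% of clustered bases in glucose and 5.63% in nitrogen, against 19.9% of mRNA with its flanks, and 24.1% (23.7 to 24.6) and 19.6% (19.2 to 20.0) of clusters ended in G. Clusters found in one list alone were richer in G, 9.43% in glucose and 6.56% in nitrogen, than those that overlapped, 5.53% and 4.91%. Whether this difference in G has a part in the results on genes was not tested.

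Motifs were sought in the 31 nt around the middle of each mRNA cluster on the RNA strand and set against all mRNA windows of that length with a T near the middle. TGTANATA, the element of the Puf proteins, was in 0.893% of glucose and 0.910% of nitrogen windows against 0.372% of all windows. Within the 3′ flank it was in 2.45% (2.11 to 2.84) and 2.59% (2.26 to 2.97) against 2.29% of 3′ flank windows, which both intervals include. TTTTTTT was in 3.86% and 3.82% against 0.885%, and AATAAA in 5.21% and 5.22% against 2.44%. TATATA, which overlaps itself in longer repeats, was in 7.57% (7.24 to 7.92) and 7.04% (6.74 to 7.36) against 1.59%. The spaced triplet CNNCNNCNN was in 15.8% (15.4 to 16.3) and 17.8% (17.3 to 18.3) against 15.2%, the one motif of the 5 whose intervals did not overlap between the lists. In the 3′ flank alone it was in 8.76% (8.12 to 9.45) and 9.88% (9.24 to 10.6) against 10.3%, with intervals that overlapped.

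The labelled strain was checked against its deleted markers. URA3 and LYS2 held no cluster in either list, LEU2 had 1 cluster in each, upstream of the coding region, and HIS3 had 0 and 3. Genes of both mating types held clusters. MF(ALPHA)1 had 7 and 9, MF(ALPHA)2 11 and 9 and STE3 4 and 5. STE2 had 2 and 9, MFA1 2 and 4, MFA2 2 and 5, BAR1 1 and 2 and STE6 3 and 7. The clusters do not settle the mating type in the label.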

How the data were processed

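Per the labels, 2 replicates per condition belong to 1 deposited cluster list; the authors' score column is 0 throughout, so the lists carry positions and no depth. The submitters' processing notes name Bowtie 0.12.7 and build R64. The sources used here do not give the nuclease, the cluster caller, its thresholds or how multiply matching reads were placed. Clusters were assigned by their middle base and strand to RefSeq genes of R64, mRNA genes being extended 100 nt upstream and 150 nt downstream. Shares have Wilson and count ratios exact conditional binomial 95% intervals (Python 3.11.15, scipy 1.17.1), for counting error only and uncorrected. Gene ratios add 20 nt; for genes with 0 clusters in 1 list they depend on that amount. Named were the 10 highest and lowest genes with at least 5 clusters, up to 4 members per list with at least 3, and others for their role, chosen with values known; some genes that meet these rules are not reported here. Members and lists were chosen with earlier results of these data known. The calculation was tested on simulated data.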

Additional observations from a re-analysis of the deposited data

How the results depend on the processing

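No paired analysis was possible because the authors pooled both replicates into 1 list per condition; for the same reason no replicate could be left out. Of 471 alternative values of 56 results on groups and regions 446 stayed within the limit set for them, as did all 1794 of single genes. For single genes the limit came from their counting intervals, which are wide, for FAS2 1.46 to 461. That check can therefore hardly fail and does not show that single genes are steady. Counts of genes were not held to a counting interval: 515 genes at least 2-fold higher in glucose by cluster number passed as unmoved from 374. The cause of the values that moved was not tested, beyond the settings' own construction. Adding 5 nt in place of 20 nt gave 680 genes at least 2-fold higher in glucose and 815 in nitrogen, and adding 50 nt gave 124 and 62. Length added in proportion to list size, chosen after seeing the data, gave 285 and 302, and scaling to mRNA nucleotides 320 and 308. Keeping clusters of at least 10 nt left 27 and 26 genes with an interval above and below 1, and widening intervals for the number of genes left 0 and 1. Widening, centring, the use of clusters with a unique 31-nt window and the alternatives for coding ratios were also chosen after seeing the data. Gene ends not extended moved ammonium assimilation to -1.44, sulfate and methionine genes to -0.65 and ribosomal proteins to 0.60 relative to the all-gene median. Adding 50 nt moved the permeases to -0.46. Cluster number in place of length gave -1.17 for permeases, -0.74 for sulfate and methionine genes, 0 for heat shock genes, -0.57 for mitochondrially encoded genes and 0.32 for ribosomal proteins. With clusters of at least 10 nt the median of inositol and phospholipid genes turned to -0.067, and the antisense ratio was 0.640. Overlap was 56.9% and 48.7% of glucose and nitrogen clusters when 50% of the shorter cluster had to be shared, 52.3% and 45.2% with clusters of at least 10 nt, and 65.0% and 56.0% on either strand. Genes with a cluster in 1 list alone were also set at a floor of 3 clusters, which moved the list medians in the report little, the permeases staying at -0.82 and amino acid synthesis going to -0.57. Depth is unknown, so a gene without a cluster may have lacked reads.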

Other observations

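Genes for allantoin use that neighbour each other on chromosome IX held clusters mostly in the nitrogen list, a run noticed in the data and described without a test. Over 406260-415617, DAL1, DAL4, DAL2, DCG1, DAL7 and DAL3 held 7 clusters over 79 nt in glucose and 41 over 499 nt in nitrogen. DAL4, the allantoin permease, had 4 and 11 clusters, DAL1 (allantoinase) 1 and 6, DAL2 (allantoicase) 1 and 7, DCG1 1 and 4, DAL7 0 and 8 and DAL3 (ureidoglycolate lyase) 0 and 5. Each of the 6 genes had more clusters in nitrogen.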
